A study of Mus musculus with 2 samples.

Results

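The Hippo pathway was examined through 10 genes in whole uterus of mice with 2 genotypes of Mettl14, a gene whose product works with Mettl3 to place N6-methyladenosine on RNA. The genes were the coactivators Yap1 and Wwtr1 (the gene for TAZ), the DNA-binding factors Tead1, Tead2, Tead3 and Tead4, the kinases Lats1 and Lats2, and the target genes Ccn1 and Ccn2, formerly Cyr61 and Ctgf. They were picked by symbol from a list of pathway genes drawn up with earlier results of these data known, and all 10 were found among 55363 genes. Each also passed the filter of 1 FPKM in at least one library, as 16263 genes did. FPKM is the number of fragments scaled to the length of the gene model and to the mapped fragments of the library, so that levels can be set side by side between genes.

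The females were 6 to 8 weeks old and had been mated with fertile males. Both groups carried pregnancies and were collected on gestational day 4, counted from the day of the plug. The control library was f/f for Mettl14 and the other library was d/d, in the usual notation floxed and deleted alleles. The source of the recombinase, the strain, and the number of animals behind a library are not given here by the labels. With 1 library per genotype, the values have no replicate error and none was tested, so the words higher and lower describe a pair of libraries rather than genotypes.

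In the Hippo pathway a kinase cascade ends in Lats1 and Lats2, which phosphorylate Yap1 and TAZ and keep them in the cytoplasm. When the kinases are quiet, Yap1 and TAZ enter the nucleus, bind Tead factors on DNA and switch on genes for matrix signalling, adhesion and growth, among them Ccn1 and Ccn2. Lats2 is itself a target, which closes a negative loop. The pathway reads cell density, polarity and tension, and much of its control acts on the proteins, which RNA levels do not show.

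Tead factors recognise the letters GGAATG, or CATTCC when read on the other strand. These letters were searched on both strands in RefSeq promoter windows of build GRCm38.p6, each 300 bases long, from 250 bases before to 50 after a start site. Such windows matched 7 of the 10 genes, with 11 windows in all, and Ccn2, Tead1 and Tead4 had no entry. The letters occurred in a window of 5 of the 7 genes, namely Yap1, Wwtr1, Tead3, Lats2 and Ccn1, and not in those of Tead2 and Lats1. Of all 32851 windows 14.7% held them, and of all 27025 genes 16.6% had them in a window. A match describes the sequence and does not show binding. The sequence upstream of Ccn1 is shown because Ccn1 is the target member for which a window was matched. It covers the 250 bases before the start, chr3:145649986-145650235 on the minus strand, with the Tead letters in capitals, beginning 103 bases before the start:
Ccn1: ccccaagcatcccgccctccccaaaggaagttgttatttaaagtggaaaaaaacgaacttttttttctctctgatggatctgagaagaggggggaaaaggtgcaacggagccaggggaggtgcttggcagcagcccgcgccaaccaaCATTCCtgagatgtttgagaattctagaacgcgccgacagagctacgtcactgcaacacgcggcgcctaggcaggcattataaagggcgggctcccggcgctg

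The matches in the coactivators, Tead3 and Lats2 are shown with 10 bases on either side, because these genes encode parts of the pathway that acts through such letters. That of Yap1 lies 141 bases before the start at chr9:8004722-8004747, that of Wwtr1 136 bases before at chr3:57576031-57576056, and one of 4 in the Tead3 windows lies 182 bases before at chr17:28350972-28350997. The Lats2 match begins at base 5 after the start, at chr14:57746104-57746129. All are given on the minus strand, on which the genes lie, with the same letters in capitals:
Yap1: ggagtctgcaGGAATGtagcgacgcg
Wwtr1: taaactcaaaGGAATGcagataggcg
Tead3: cgacgagcgaGGAATGgggtgcgcgg
Lats2: tgacgcccgtGGAATGccaacaatgt

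Of the 10 genes, Ccn2 alone differed by at least 2-fold between the libraries, and it was lower in d/d. The rule was a log2 ratio, of FPKM + 1 in d/d to FPKM + 1 in f/f, of at least 1 in size. By this rule 18.4% of the 16263 genes differed in either direction, 10.2% higher and 8.28% lower, so that 1 of 10 is no larger a share than among genes at large. By a 1.5-fold rule Wwtr1 passed as well, 2 of 10 genes beside 36.6% of all genes. The median log2 ratio of the 10 genes was 0.23, with 6 above 0 and 4 below, beside a median of -0.01 and quartiles of -0.41 and 0.41 over all genes. Yap1, Tead1, Tead2, Tead3, Tead4 and Lats2 lay between those quartiles. Wwtr1 and Ccn2 lay below them, and Lats1 and Ccn1 above.

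**Figure D1:**
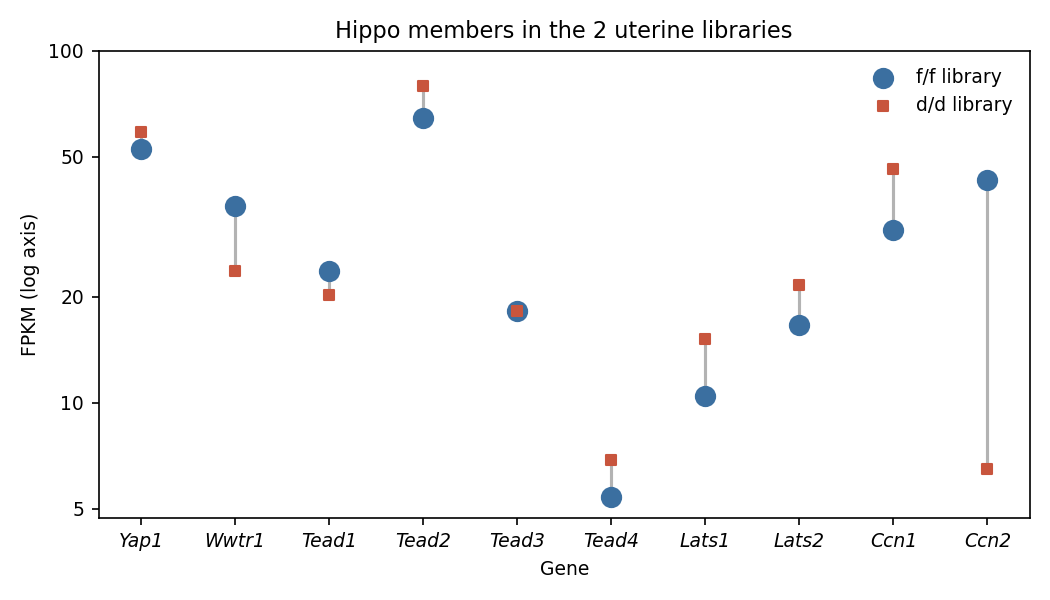
FPKM of the 10 Hippo genes on a log axis in the f/f library (blue circles) and the d/d library (red squares), with a grey line joining the values of a gene. There is 1 library per genotype and no error bar. Ccn2 spans the longest line, from 42.9 to 6.48 FPKM, and the Tead3 symbols overlie each other.

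The deleted gene served as a check of the labels. Mettl14 stood at 13.6 FPKM in f/f against 3.21 in d/d, in the direction of its labels. The libraries also differed in markers of the cells that make up the uterus. Of 12 epithelial markers 11 passed 2-fold upwards in d/d and none downwards, with a summed level of 398 FPKM in f/f against 2376 in d/d. Of 12 stromal markers 7 were lower and none higher, at 6534 and 4024 FPKM in sum, and 4 of 10 smooth muscle markers were lower and none higher, at 5030 and 3275. Endothelial markers were lower in 4 of 11 cases and higher in none, at 483 and 253 FPKM. Gland markers were lower in 5 of 8 cases and higher in none, at 2286 and 26.6 FPKM, with Spink1 and Prss28 listed at 0 in d/d. Most of the gland sum in f/f came from Prss29 at 943 FPKM, Spink1 at 578, Prap1 at 456 and Prss28 at 278. The other 3 gland markers, Foxa2, Cxcl15 and Sox9, passed in neither direction, with log2 ratios of -0.42, -0.58 and 0.38. Whether the number of glands differed was not tested. All 7 natural killer cell markers were lower, at 293 and 4.05 FPKM, with Gzmc listed at 0 in d/d, and 4 of 7 macrophage markers were higher and none lower, at 459 and 1185. Markers of tissue beside the uterus were low in at least one library. The 6 fat-cell markers summed to 2.96 FPKM in f/f against 106 in d/d, with all 4 measured ones higher. The 4 oviduct markers summed to 16.7 and 2.49 FPKM, most of it Ovgp1 at 13.0 and 0.352, and of the 3 measured ones 2 were lower and 1 higher. The part of these shifts in the Hippo values was not tested.

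The coactivators went in opposite directions by modest amounts. Yap1, which encodes the pathway's main transcriptional coactivator, was 52.5 FPKM in f/f against 58.6 FPKM in d/d, a log2 ratio of 0.16. Wwtr1, whose product TAZ is the paralog of Yap1, was 36.1 FPKM in f/f against 23.6 in d/d, a log2 ratio of -0.59. Of all genes 17.6% had a log2 ratio as low as that of Wwtr1 or lower. The 2 coactivators together were 88.6 FPKM in f/f against 82.2 in d/d, a ratio of 0.929 where Yap1 had 1.12 and Wwtr1 0.655. The ratio of Yap1 to Wwtr1, which does not depend on how the libraries were scaled, was 1.45 in f/f against 2.48 in d/d. Yap1 was thus the more abundant coactivator in both libraries, and by more in d/d. In sum, epithelial markers were higher and stromal markers lower in the same library, as given above. Their part in the coactivator values was not tested.

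The Tead genes differed least among the 4 kinds of member. Tead2 was the most abundant of the 10 genes in both libraries, at 64.5 FPKM in f/f against 79.4 in d/d. Tead1 was 23.7 and 20.3 FPKM and Tead3 was 18.3 and 18.2. Tead4, best known for its part in the outer layer of the early embryo, was the least abundant Tead gene at 5.39 and 6.87 FPKM. All 4 log2 ratios lay between -0.21, for Tead1, and 0.30, for Tead2 and Tead4, and Tead3 had the smallest difference of the 10 genes at -0.0017. The summed Tead level was 112 FPKM in f/f against 125 in d/d.

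Within the Tead sum, Tead2 made up 57.7% in f/f against 63.6% in d/d. Tead1 made up 21.2% and 16.3%, Tead3 16.3% and 14.6%, and Tead4 4.82% and 5.51%. The order Tead2, Tead1, Tead3, Tead4 was the same in both libraries. Yap1 and Wwtr1 together stood at 0.792 of the Tead sum in f/f against at 0.659 in d/d. The gene models of Tead2 and the B cell gene Cd37 overlap on opposite strands of chromosome 7, where Tead2 runs from 45215753 to 45233644. Cd37 was 11.2 FPKM in f/f against 13.0 in d/d. The labels do not give the strandedness of the libraries, and without it fragments in the overlap cannot be told apart.

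**Figure D2:**
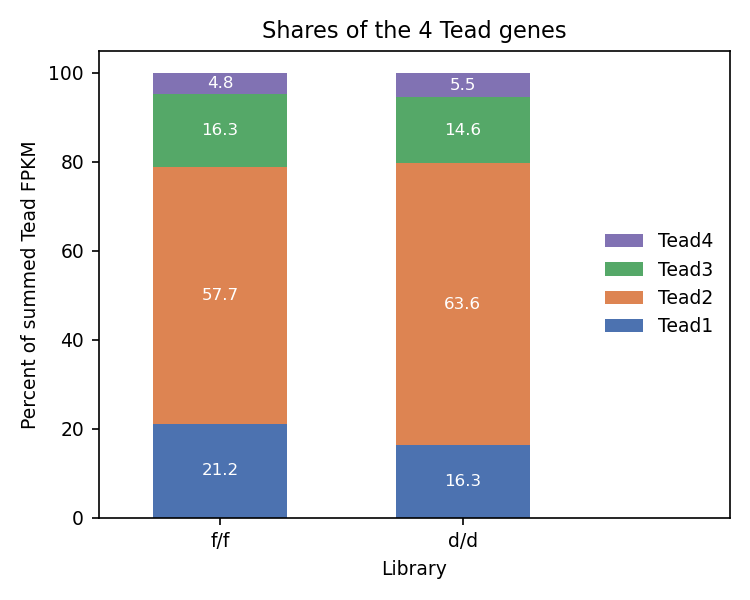
Each bar is 1 library, and its segments are the shares of Tead1, Tead2, Tead3 and Tead4 in the summed Tead FPKM, in percent. Tead2 holds more than any other Tead gene in both, with 57.7% in f/f against 63.6% in d/d.

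Both Lats kinase genes were somewhat higher in d/d. Lats1 was 10.5 FPKM in f/f against 15.2 in d/d, a log2 ratio of 0.50, which 21.9% of all genes reached or exceeded. Lats2, the kinase that is also a Yap1 target, was 16.6 FPKM in f/f against 21.5 in d/d, a log2 ratio of 0.35, which 27.6% reached or exceeded. Lats2 exceeded Lats1 in both libraries, with ratios of 1.59 in f/f against 1.42 in d/d. The 2 kinases together were 27.1 FPKM in f/f against 36.7 in d/d. Set against the coactivators, the summed kinase level was 0.306 of the Yap1 and Wwtr1 sum in f/f against 0.446 in d/d. This 1.46-fold difference in a ratio within libraries concerns RNA and says nothing of kinase activity.

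The 2 target genes, which encode secreted matrix-associated proteins of the CCN family, went apart. Ccn2, formerly connective tissue growth factor, was 42.9 FPKM in f/f against 6.48 FPKM in d/d, a 6.62-fold lower level. Its log2 ratio of -2.55 was among the lowest 1.12% of all genes, with 182 genes at that value or below. Ccn1, which binds integrins on many cell types, was 31.0 FPKM in f/f against 46.2 in d/d, a 1.49-fold higher level. Its log2 ratio of 0.56 was reached or exceeded by 19.6% of genes. In f/f Ccn2 was above Ccn1, with a ratio of 1.38, whereas in d/d Ccn1 was 7.14 times as high as Ccn2. The ratio of Ccn2 to Ccn1 was thus 9.87-fold lower in d/d, and it does not depend on the scaling between libraries. The summed stromal, smooth muscle and endothelial markers were lower in the same library, as given above. Within these lists, 5 of 12 stromal, 6 of 10 smooth muscle and 7 of 11 endothelial markers passed the 2-fold rule in neither direction. In whole tissue, fewer cells of a type and less RNA per cell cannot be told apart.

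Ccn2 (ENSMUSG00000019997) lies on the plus strand of chromosome 10 from 24595442 to 24598683 on GRCm38, the assembly also called mm10. It has 3 annotated transcripts of 343 to 2490 nt, and an FPKM value per gene does not show which of them was measured. The noncoding gene Gm15270 overlaps it on the other strand and was 1.96 FPKM in f/f against 1.90 in d/d. Ccn1 (ENSMUSG00000028195) is annotated at 145646976 to 145649981 on chromosome 3, minus strand, and has 1 annotated transcript of 2019 nt. Over the longest coding transcript, the level of Ccn2 corresponds to roughly 1890 fragments in f/f against 334 in d/d, and that of Ccn1 for about 1108 and 1931. The thinnest coverage of the 10 genes by this estimate in f/f was that of Tead4, with about 293 fragments, and 438 in d/d. These numbers rest on an estimated depth and cover counting alone, not the spread between animals.

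**Figure D3:**
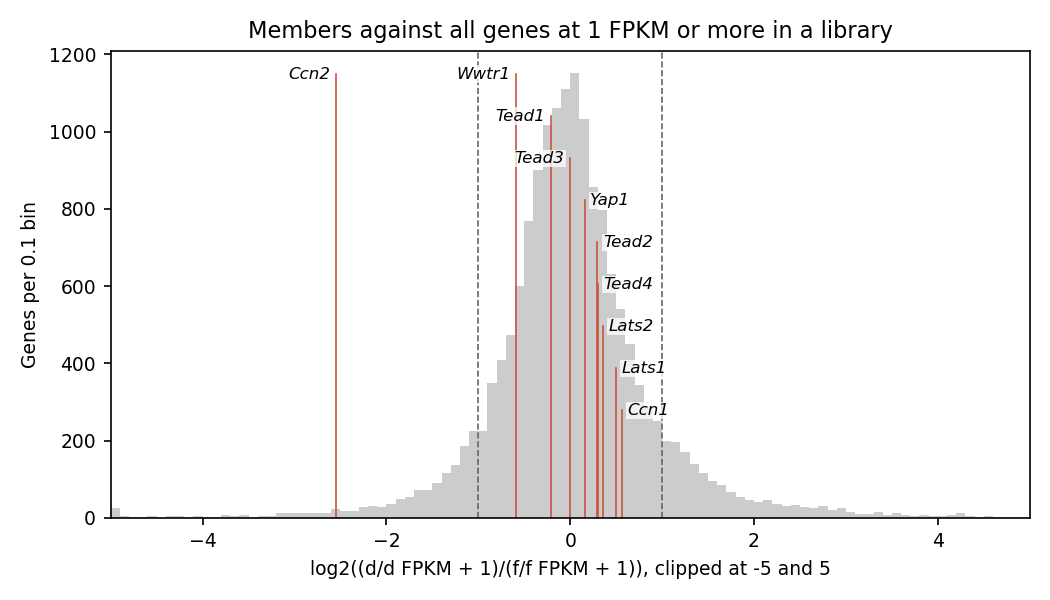
Histogram of log2((d/d FPKM + 1)/(f/f FPKM + 1)) over 16263 genes in bins of 0.1, with values beyond -5 or 5 placed at the ends. Red lines mark the 10 Hippo genes and dashed lines the 2-fold rule. The lines of 9 genes fall in the body of the distribution between -0.59 and 0.56, and Ccn2 stands at -2.55.

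The order of the levels was much the same in both libraries apart from Ccn2. From high to low it ran Tead2, Yap1, Ccn2, Wwtr1, Ccn1, Tead1, Tead3, Lats2, Lats1 and Tead4 in f/f. In d/d it ran Tead2, Yap1, Ccn1, Wwtr1, Lats2, Tead1, Tead3, Lats1, Tead4 and Ccn2. Ccn2 thus went from the third place to the last. The highest gene was 12.0-fold above the lowest in f/f and 12.3-fold in d/d. Without replicates it cannot be said which neighbours in this order differ beyond their spread. The other 9 genes summed to 258 FPKM in f/f against 290 in d/d.

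Beyond Ccn1 and Ccn2, the larger set of 22 genes often used as a signature of Yap1 and TAZ activity did not move as one. The signature comes from cancer cells of other organs, and 20 of its genes were measured. In d/d 4 of them were lower by the 2-fold rule, none was higher and the other 16 passed in neither direction. Their median log2 ratio was -0.06, beside -0.01 over all genes. The 4 genes past the rule are 20% of those measured, beside 18.4% of all genes in either direction and 8.28% lower. Without Ccn1, Ccn2 and Lats2, which are among the 10 genes, 3 of 17 were lower and none higher. That is 17.6% in either direction, and the median was -0.12. In either direction the share past the rule was thus near that of genes at large. All of those past it were lower, however, whereas 8.28% of all genes were lower and 10.2% higher. Igfbp3, a carrier of insulin-like growth factors, was 480 FPKM in f/f against 23.2 in d/d. Fjx1, which encodes a secreted relative of the fly four-jointed protein, was 8.24 and 3.24 FPKM, and Nt5e, the ectoenzyme that makes adenosine, was 9.87 and 4.22. Of the 20 genes 9 had log2 ratios above 0 and 11 below. Ccn1 had the highest ratio of the set, so that Ccn1 and Ccn2 stand near its opposite ends.

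**Figure D4:**
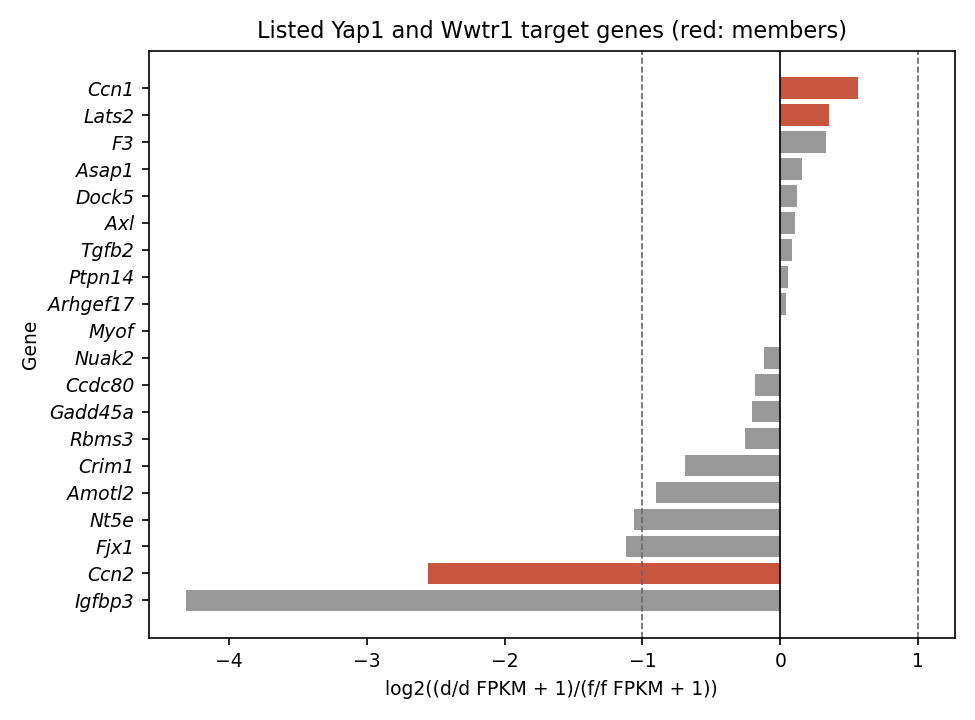
Bars give log2((d/d FPKM + 1)/(f/f FPKM + 1)) of the 20 measured signature genes in order, with the members Ccn1, Ccn2 and Lats2 in red and dashed lines at the 2-fold rule. Igfbp3, Ccn2, Fjx1 and Nt5e pass the line at -1, none passes the line at 1, and Ccn1 is at the top with 0.56.

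Within the CCN family, 5 of 6 genes were measured and Ccn2 was the single gene past the 2-fold rule with the pseudocount of 1. That is 20% of the measured genes, near the 18.4% of all genes that passed in either direction. With pseudocounts of 0.1 and 0.01, 1 gene was higher too, namely Ccn5 at 0.188 FPKM in f/f against 1.29 in d/d (named after its values were seen). The 3 measured genes beside Ccn1 and Ccn2 had log2 ratios from -0.18 to 0.95. The family median was 0.14.

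Tead factors also bind vestigial-like proteins in place of Yap1 or TAZ. Of 4 such genes, Vgll1 and Vgll2 were listed at 0 in both libraries. Vgll3 was 28.2 FPKM in f/f against 3.35 in d/d, an 8.42-fold lower level with a log2 ratio of -2.75, below that of Ccn2. Vgll4, known as an antagonist of Yap1 at Tead factors, was 41.1 FPKM in f/f against 55.7 in d/d (Vgll1, Vgll2 and Vgll4 were named after their values were seen). Against the Tead sum, which was higher in d/d by a factor of 1.12, the 2 measured cofactor genes went in opposite directions.

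The kinase module upstream of Yap1 held no gene past the 2-fold rule among 7, Lats1 and Lats2 included, and its median log2 ratio was 0.11. Of all genes 18.4% passed the rule, so a list this short could hold few or none. Mob1a, an activator of the Lats kinases, was 65.1 FPKM in f/f against 65.0 in d/d. The scaffold gene Sav1 was 45.3 and 27.5 FPKM and the kinase gene Stk3, which encodes MST2, was 22.7 and 31.7. The phosphatase complex that removes phosphate from the MST kinases had none of 13 genes past the rule, beside the same 18.4%, with a median of -0.03. Its Ppp2r1a, Slmap and Fgfr1op2 were 120 and 100.1 FPKM, 82.4 and 67.3, and 68.1 and 66.3.

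Among 22 measured upstream inputs, 2 were higher and 3 lower in d/d, together 22.7% beside 18.4% of all genes, with a median log2 ratio of -0.04. Wwc1, the gene for KIBRA, was 7.0 FPKM in f/f against 25.3 in d/d, and the atypical cadherin gene Fat1 was 8.06 and 21.8. Lower beside Fjx1 were Rassf2 at 43.3 and 12.5 FPKM, and Map4k1, a kinase gene of blood cells, at 6.58 and 2.11. Of 15 measured polarity genes 3 were higher and none lower, together 20% beside 18.4% of all genes, with a median of 0.39. With scaling to equal FPKM sums or by the upper quartile 2 were higher. They were Pard6b at 2.92 and 11.1 FPKM, the Crumbs gene Crb3 at 17.2 and 45.3, and, just past the rule with a log2 ratio of 1.02, Llgl2 at 9.38 and 20.1. Another list held 18 genes whose products act around Yap1 and TAZ. Not all of these products hold back Yap1 and TAZ, Ajuba being an exception, so the counts give no direction for the pathway. Of the 18 genes 2 were higher and none lower, together 11.1% beside 18.4% of all genes, with a median of 0.20. Sfn, which encodes an epithelial phosphoserine-binding protein, was 4.95 FPKM in f/f against 107 in d/d, and Ajuba, a LIM protein gene, was 11.0 and 35.1. Epithelial markers were higher in the same library, 11 of 12 of them past the rule, and their part in these differences was not tested.

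The last list held Srf, its cofactors Mrtfa and Mrtfb, and genes that respond to actin tension through Srf, some of which Yap1 also reaches. It had none of 17 genes past the rule and a median of -0.12. By the mean of both libraries the most abundant were Tagln at 1515 FPKM in f/f against 1042 in d/d, Acta2 at 1211 and 1130, and Myl9 at 747 and 1321. Over all these lists without the 10 genes, 7 of 109 measured genes were higher and 6 lower, which is 11.9% in either direction beside 18.4% of all genes. Their median log2 ratio was -0.0027.

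**Figure D5:**
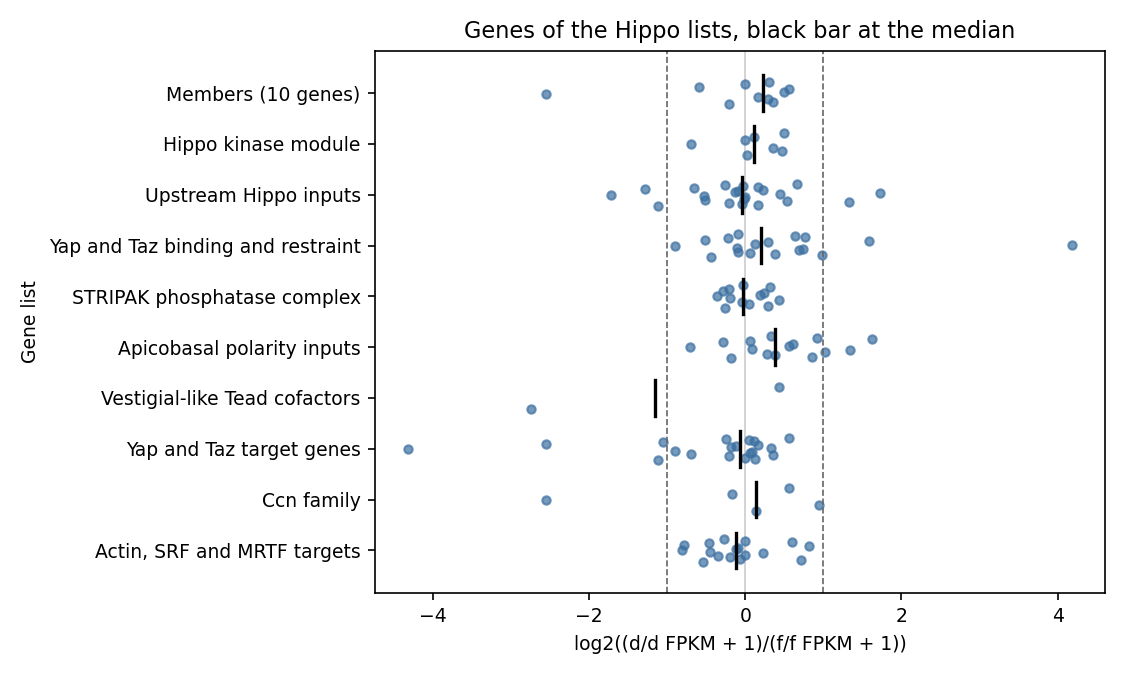
Each point is a measured gene, placed by its log2((d/d FPKM + 1)/(f/f FPKM + 1)), in rows for the 10 Hippo genes and 9 pathway lists, with a black bar at the median and dashed lines at the 2-fold rule. Medians lie between -0.12 and 0.39 except in the list of vestigial-like cofactors, where it is the midpoint of 2 genes at -1.16.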

How the data were processed

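RNA-seq of 2 whole-uterus libraries was used, 1 per genotype. The authors deposited FPKM values per gene. HISAT2 (2.2.1), Cufflinks (2.2.1) and build mm10 are listed in the submitters' processing notes, without their settings. No annotation release or strandedness is given by the labels.

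Rows that share a symbol were summed (120 rows beyond the first of a symbol, none for the 10 genes). Log2 ratios were computed on FPKM with a pseudocount of 1, which understates changes of low genes. A gene was kept if either library reached 1 FPKM. Python 3.11.15 and pandas 2.3.3 were used. The code for the calls was run on simulated data with planted changes larger than 2-fold. Such a run checks the code alone, not calls near the rule or the spread between animals. Depth, from steps of values of single-transcript genes of at least 2000 nt, was put at 17700000 fragments in f/f against 20700000 in d/d. At those depths 72.5% of 843 and 68.8% of 865 low values came within 0.1 of whole fragments. The depths were chosen for the best fit of these same values, so the shares are no separate check. Positions come from GENCODE M21, which held 55137 of 55483 gene IDs.

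The members and lists were chosen with earlier results of these data known. From each pathway list, up to 6 genes past 2-fold and at 5 FPKM or more were named, or else the 3 most abundant. Alternatives were other pseudocounts, filters, scalings, the first row of a symbol and a 1.5-fold rule.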

Additional observations from a re-analysis of the deposited data

How the results depend on the processing

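Under 8 alternatives for the log2 ratios (pseudocounts of 0.1 and 0.01, no filter, a filter at 5 FPKM, 3 scalings and the first row of a shared symbol), all 80 values of the 10 genes stayed on their side of the 2-fold rule. Of these 79 kept their sign, the exception being Tead3, at 0.0012 with median-ratio scaling. The filter settings and the first-row setting could not move the values of the 10 genes. The ratio does not use the filter, and none of the 10 genes shares its symbol with another row. Ccn2 ranged from -2.73 to -2.51. The median of the vestigial-like cofactors moved from -1.16 to -1.30 and -1.31 with pseudocounts of 0.1 and 0.01. Without a filter it was 0.0, because Vgll1 and Vgll2, listed at 0, then entered. In the list of Srf and actin genes 1 gene was lower by 2-fold with pseudocounts of 0.1 and 0.01. With a 1.5-fold rule 2 of the 10 genes passed, Wwtr1 with Ccn2, and 5951 of all genes did, against 2998 at 2-fold. No paired analysis was possible because there is 1 library per genotype, and for the same reason no replicate could be left out. By the estimated depth each of the 10 genes had about 293 fragments or more in each library. The spread between animals was not measured.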

Other observations

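The complex that holds Mettl14 prefers the letters GGACT, as read in DNA, within its motif. In the longest annotated coding transcript of each measured gene, the median density of these letters was 1.05 per kb over 13755 genes, with quartiles of 0.641 and 1.54. The 10 Hippo genes had a median of 0.847 per kb, and 4 of them lay above the median of all genes. Ccn1 held 4 copies in 2019 nt, or 1.98 per kb, a density above that of 87.7% of genes. Ccn2 held 1 copy in 2490 nt, or 0.402 per kb, with 13.3% of genes below it. Tead2 and Tead3 had 1.47 and 1.44 per kb, and Yap1 and Wwtr1 0.719 and 0.639. The letters count possible sites only, and methylation of these transcripts was not analysed here. Vgll3, the gene with a lower ratio than Ccn2 among the Tead cofactors, had 0.713 per kb.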
